A study of Mus musculus with 9 samples.

Results

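The red cell set comprised 6 genes, taken by symbol from the count table. These were the adult alpha globin genes Hba-a1 and Hba-a2, the adult beta globin genes Hbb-bs and Hbb-bt, the erythroid heme enzyme gene Alas2 and the red cell anion exchanger gene Slc4a1. All 6 were among the 52550 genes of the table. Of these genes, 22430 had enough counts to be tested, and they included 5 of the 6. Slc4a1 was not tested.

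The libraries were 9, from the ear dermis of C57BL/6 mice (C57BL/6J in the study's methods) of 8 weeks labelled as wild type, with 3 libraries in each of 3 groups. Every mouse received 200 µl by gavage for 10 days, once a day by the labels whereas a legend of the study gives a higher frequency, and a topical treatment for 5 days. VAS+H2O received vaseline and water, IMQ+H2O received imiquimod cream and water, and IMQ+XYF received imiquimod cream and a decoction of Chinese herbs, Xiao-Yin-Fang (XYF), at 23.3 mg/g. Imiquimod, an agonist of Toll-like receptor 7, produces a skin inflammation that serves as a model of psoriasis. The RNA came from intact dermal sheets, and the study's methods mention a pair of mice without saying whether each library pooled animals. Where libraries share animals, p-values measure only the spread between these libraries.

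Haemoglobin is a tetramer of alpha and beta globin chains, each holding a heme group, and it fills the circulating red cell. Mature red cells of mammals have no nucleus and make no new messenger RNA, whereas the youngest circulating red cells, the reticulocytes, still carry large amounts of globin messenger RNA together with some Alas2 messenger RNA. Adult mouse skin is not a site of red cell formation, and globin messenger RNA in a tissue is therefore commonly read as a measure of the blood within it. Fewer red cells in a sheet and less messenger RNA per red cell cannot be told apart in such libraries.

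The globin genes lie in clusters. On the GRCm38 build (GENCODE release vM21), Hba-a1 (ENSMUSG00000069919) spanned chr11:32283511-32284465 on the plus strand and Hba-a2 (ENSMUSG00000069917) spanned chr11:32296489-32297298 on the same strand. Hbb-bs (ENSMUSG00000052305) spanned chr7:103826534-103828096 and Hbb-bt (ENSMUSG00000073940) chr7:103812524-103813996, both on the minus strand. Alas2 (ENSMUSG00000025270), which encodes the first and rate-limiting enzyme of heme synthesis in erythroid cells, lay at chrX:150547375-150570638 on the plus strand. Slc4a1 (ENSMUSG00000006574), which encodes the main membrane protein that exchanges chloride for bicarbonate in red cells, lay at chr11:102348824-102366203 on the minus strand. No annotated gene overlapped the globin genes or Slc4a1. Alas2 overlapped the opposite-strand gene Apex2, with which it shared 12.9% of its exon bases, and the small RNA gene Mir3620 covered another 2.54%. The labels call the libraries strand-specific, whereas the kit named in the methods does not keep the strand, and the counting was not described. Reads of these shared bases therefore cannot be assigned with certainty. Apex2 itself differed little between groups, with a log2 fold change of 0.13 for IMQ+H2O against VAS+H2O (edgeR adjusted p 0.836).

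The coding sequences of the alpha pair were each 429 bases long and differed at 1 base. Those of the beta pair were each 444 bases long and likewise differed at 1 base. The stretches of 50 bases around these positions are shown because they hold the only coding base that can assign a read within each pair. The transcripts also differ outside the coding sequence, where reads can be assigned as well. The base that differs is in capitals. It is C381T from Hba-a1 to Hba-a2 and C417T from Hbb-bs to Hbb-bt, counted from the first base of the start codon.
Hba-a1: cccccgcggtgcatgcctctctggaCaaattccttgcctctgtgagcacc
Hba-a2: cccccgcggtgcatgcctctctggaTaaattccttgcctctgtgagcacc
Hbb-bs: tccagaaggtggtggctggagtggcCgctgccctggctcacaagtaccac
Hbb-bt: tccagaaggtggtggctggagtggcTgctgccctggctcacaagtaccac

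Of the 100-base windows of the Hba-a1 transcript, 56.5% were also present in the Hba-a2 transcript, and 74.5% of the Hba-a2 windows were present in Hba-a1. For the beta pair, 62.6% of the Hbb-bs windows were found in Hbb-bt and 54.8% of the Hbb-bt windows in Hbb-bs. How reads with 2 equally good positions were counted was not given in the sources used here. The split of counts within each pair is thus uncertain, and summed values are given beside the separate ones.

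The promoters of 5 of the 6 genes were available from RefSeq (GRCm38.p6). They are shown as a description of the genes, and no link between these sequences and the levels across the libraries was tested. The 250 bases before the RefSeq start are given 5′ to 3′, with capitals for the matches to 4 patterns, searched on both strands. They are CCAAT and the TATA box letters TATAA, both of which are general promoter elements, CACCC, which KLF factors bind, and GATAA, which GATA factors bind. Reverse forms read ATTGG for the first, TTATA for the second, GGGTG for the third and TTATC for the last. The GENCODE gene models of all 5 begin upstream of the RefSeq start, so that the 3′ part of each stretch lies within the gene span given above. The stretches lie at chr11:32283422-32283671 for Hba-a1, chr7:103827929-103828178 for Hbb-bs, chr7:103813924-103814173 for Hbb-bt and chrX:150547167-150547416 for Alas2.
Hba-a1: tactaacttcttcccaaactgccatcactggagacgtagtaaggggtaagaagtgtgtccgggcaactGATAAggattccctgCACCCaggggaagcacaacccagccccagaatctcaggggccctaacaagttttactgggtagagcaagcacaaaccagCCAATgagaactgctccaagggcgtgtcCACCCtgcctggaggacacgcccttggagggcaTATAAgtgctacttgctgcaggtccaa
Hbb-bs: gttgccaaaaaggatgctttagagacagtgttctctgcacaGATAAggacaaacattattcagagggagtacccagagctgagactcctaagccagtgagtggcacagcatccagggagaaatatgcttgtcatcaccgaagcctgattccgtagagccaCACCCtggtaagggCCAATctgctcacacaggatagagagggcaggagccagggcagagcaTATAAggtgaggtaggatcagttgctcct
Hbb-bt: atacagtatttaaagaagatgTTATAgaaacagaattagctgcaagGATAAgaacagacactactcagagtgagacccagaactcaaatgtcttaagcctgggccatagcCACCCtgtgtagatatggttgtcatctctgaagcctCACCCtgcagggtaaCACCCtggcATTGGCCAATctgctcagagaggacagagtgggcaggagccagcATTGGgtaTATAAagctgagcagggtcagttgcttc
Alas2: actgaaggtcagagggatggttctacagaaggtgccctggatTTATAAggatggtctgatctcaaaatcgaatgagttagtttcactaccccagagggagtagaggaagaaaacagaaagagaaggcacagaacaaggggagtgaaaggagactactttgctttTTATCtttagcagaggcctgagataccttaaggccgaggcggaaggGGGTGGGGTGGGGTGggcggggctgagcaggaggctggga

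The Hba-a2 promoter matched that of Hba-a1 at all 247 aligned bases. The Hbb-bs and Hbb-bt promoters were 75.2% identical over 242 aligned bases. All 4 globin promoters held each of the 4 letter patterns, and in the forward form TATAA began between 27 and 30 bases and CCAAT between 75 and 91 bases before the start. The Hbb-bt promoter held CCAAT in both orientations. The Alas2 promoter held GATAA 86 bases before the start and CACCC at 3 positions, both in the reverse form, and no CCAAT. Its TATAA, 207 bases before the start, overlapped a copy in the reverse form. Among all 32851 promoters of the same length, CCAAT was present in 33.8%, TATAA in 22.8%, CACCC in 52%, GATAA in 22.6% and all 4 together in 0.968%. These are matches of letters and not measured binding.

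Total counts ran from 28756305 to 79836881 per library, and values are given as TMM-scaled CPM, which is the count divided by the size of its library and adjusted for the composition of the library. Dermal markers were abundant, with decorin (Dcn) between 4545 and 6278 CPM. Genes of neighbouring tissue were present and uneven. The summed level of 6 epidermal genes was between 1946 and 5899 CPM in 8 libraries and was 14080 CPM in IMQ+XYF replicate 1. The same library had the lowest level of 6 skeletal muscle genes, 62.4 CPM, where the others held between 244 and 1013 CPM.

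The share of a library's counts held by the 4 globin genes together was between 0.00420% and 0.0332%, and their levels differed as much within groups as between them. In the VAS+H2O libraries 1, 2 and 3, the summed globin level was 84.3, 245 and 350 CPM. It was 106, 46.8 and 165 CPM in the IMQ+H2O libraries and 41.7, 71.0 and 180 CPM in the IMQ+XYF libraries. VAS+H2O replicates 2 and 3 were thus the highest of the 9. VAS+H2O replicate 1 was below 3 of the 6 imiquimod-treated libraries. The highest library exceeded the lowest 8.39-fold over all libraries, and within a group the range was between 3.53-fold and 4.32-fold.

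**Figure D1:**
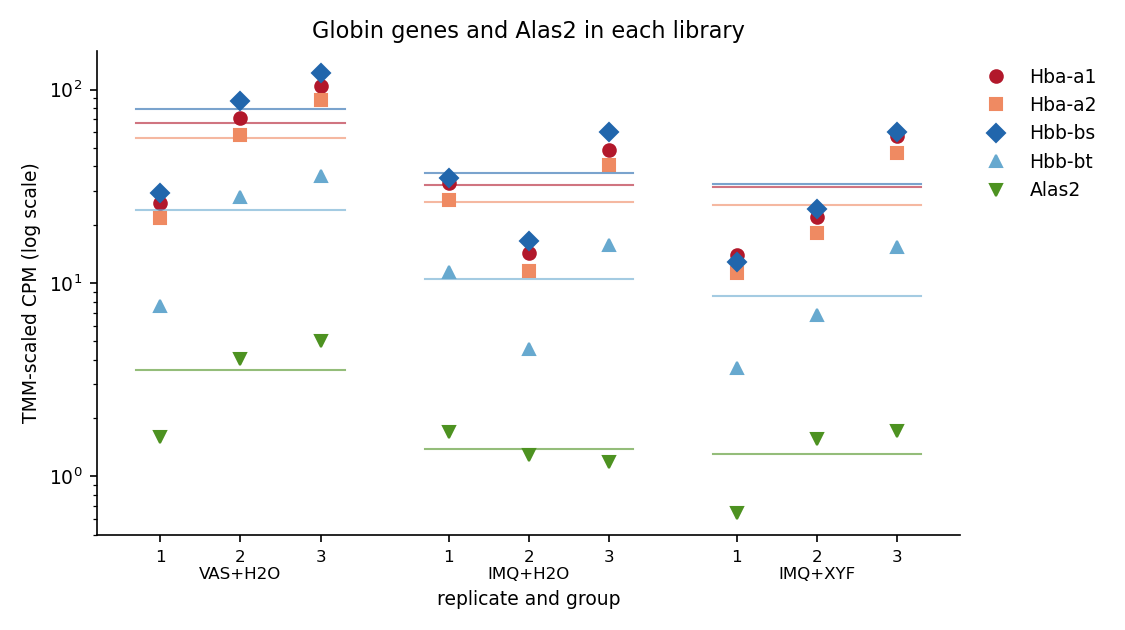
TMM-scaled CPM of the 4 globin genes and Alas2 (log axis) in each of the 9 libraries, with a horizontal line at the mean of each group. VAS+H2O replicates 2 and 3 hold the highest values of all 5 genes, and VAS+H2O replicate 1 lies among the imiquimod-treated libraries. Slc4a1 is left out because it had no count in 7 libraries.

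Hba-a1, an alpha chain gene, had 26.0, 71.0 and 104 CPM in VAS+H2O, 32.7, 14.2 and 48.7 CPM in IMQ+H2O and 13.9, 21.9 and 57.7 CPM in IMQ+XYF. Hba-a2, the second alpha chain gene, had 21.6, 58.5 and 88.2 CPM in VAS+H2O, 26.7, 11.5 and 40.6 CPM in IMQ+H2O and 11.3, 18.1 and 46.8 CPM in IMQ+XYF. In both genes replicate 3 was the highest of each group, and the groups overlapped in every comparison. The labels do not say whether the replicate numbers link libraries of different groups.

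Hbb-bs, the more abundant beta chain gene, had 29.1, 87.5 and 122 CPM in VAS+H2O. It had 34.8, 16.5 and 60.0 CPM in IMQ+H2O and 12.9, 24.1 and 60.6 CPM in IMQ+XYF. Hbb-bt, its less abundant neighbour, had 7.59, 27.9 and 35.8 CPM in VAS+H2O, 11.4, 4.53 and 15.7 CPM in IMQ+H2O and 3.64, 6.85 and 15.3 CPM in IMQ+XYF. The order of the libraries was nearly that of the alpha genes, again with VAS+H2O replicate 1 within the range of both imiquimod groups.

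Alas2 had 1.60, 4.06 and 4.99 CPM in VAS+H2O, 1.69, 1.29 and 1.19 CPM in IMQ+H2O and 0.647, 1.57 and 1.72 CPM in IMQ+XYF. The counts behind these values ran from 49 to 373 per library. Within IMQ+H2O, Alas2 was lowest in replicate 3, where the globin genes were highest. Over all libraries it was lowest in IMQ+XYF replicate 1, as were the globin genes. Only VAS+H2O replicate 1 kept the Alas2 levels of the VAS+H2O group from standing above those of both other groups.

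Slc4a1 was barely detected, with 11 counts in VAS+H2O replicate 3, 3 counts in IMQ+H2O replicate 1 and none in the other 7 libraries. A count of 0 allows up to 3 counts, which corresponded to between 0.0373 and 0.0833 CPM in these 7 libraries. The highest Slc4a1 value, 0.147 CPM, was in the library with the highest globin level, and no fold change is given for this gene.

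Per kilobase of coding sequence, the median level over the 9 libraries was 78.5 CPM for Hbb-bs, 76.3 for Hba-a1, 62.3 for Hba-a2, 25.7 for Hbb-bt, 0.907 for Alas2 and 0 for Slc4a1. The levels of Hbb-bs and Hba-a1 differed by less than their spread between libraries in every group, for example 179 ± 106 and 156 ± 91.1 CPM per kilobase in VAS+H2O (SD, n = 3). Within libraries, Hbb-bs lay above Hba-a1 except in IMQ+XYF replicate 1, where they had 29.0 and 32.5 CPM per kilobase. Hba-a2 lay below Hba-a1 in all 9 libraries, with Hba-a1 holding between 54.1% and 55.3% of the alpha counts. This margin was smaller than the spread between libraries but was steady within them. The order of the alpha pair depends on the use of the coding length, which both genes share. Their annotated transcripts had 699 bases for Hba-a1 and 554 bases for Hba-a2, and per base of transcript the order was reversed. Alas2 lay below all 4 globin genes in each of the 9 libraries.

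IMQ+H2O was compared with VAS+H2O to ask whether the psoriasis-like model changed the amount of red cell messenger RNA. The group means of all 5 tested genes were lower with imiquimod, with folds between 0.388 and 0.477, and none of the 5 passed the test. A gene was called where the adjusted p of edgeR's quasi-likelihood test was 0.05 or lower and the absolute log2 fold change was 1 or higher, which 0.994% of all tested genes met. The libraries of both groups overlapped for all 5 genes, while they separated for 31.5% of all tested genes.

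For Hba-a1 the mean was 66.9 ± 39.1 CPM in VAS+H2O and 31.9 ± 17.3 CPM in IMQ+H2O (SD, n = 3), a log2 fold change of −1.07 with a 95% confidence interval from −2.57 to 0.44 (edgeR adjusted p 0.386). For Hbb-bs the means were 79.6 ± 47.0 and 37.1 ± 21.8 CPM, a log2 fold change of −1.10 with an interval from −2.68 to 0.48 (edgeR adjusted p 0.394). Both intervals held 0 as well as lower values larger in size than the estimates. Hba-a2 and Hbb-bt had log2 fold changes of −1.10 and −1.17 (edgeR adjusted p 0.378 and 0.362).

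Alas2 had the narrowest interval of the 5. Its mean was 3.55 ± 1.75 CPM in VAS+H2O and 1.39 ± 0.264 CPM in IMQ+H2O (SD, n = 3). Its log2 fold change was −1.36 ± 0.48 (SE), and the interval ran from −2.46 to −0.27. It was the only one of the 5 with an unadjusted p below 0.05, and with adjustment over all tested genes the edgeR p was 0.163.

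The globin result leaned on VAS+H2O replicate 3, in which the globin level was highest. Without that library the median log2 fold change of the 5 genes moved from −1.10 to −0.65, and without VAS+H2O replicate 1 it was −1.50. No gene of the 5 was called in either fit.

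IMQ+XYF was then set against IMQ+H2O to ask whether the decoction altered these levels in inflamed skin. The 5 genes had log2 fold changes between −0.29 for Hbb-bt and −0.03 for Hba-a1, and none was called (edgeR adjusted p between 0.885 and 0.988), where 0.00892% of all tested genes were. Hba-a1 had means of 31.9 ± 17.3 and 31.2 ± 23.3 CPM, and its interval ran from −1.53 to 1.46. Alas2 had means of 1.39 ± 0.264 and 1.31 ± 0.580 CPM, and its interval ran from −1.17 to 1.01. The groups overlapped for all 5 genes, against separation in 18% of all tested genes. The intervals of all 5 genes held log2 fold changes of 1 in either direction. The direction itself depended on single libraries. Without IMQ+H2O replicate 3 the median log2 fold change of the 5 genes was 0.37, and without IMQ+XYF replicate 3 it was −0.84. Without IMQ+XYF replicate 1, which had the least globin, the most epidermal and the least muscle message, it was 0.25, and the part of these tissues in the result was not tested.

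The comparison of IMQ+XYF with VAS+H2O, which shares its libraries with the other comparisons, gave log2 fold changes of −1.10 for Hba-a1, −1.14 for Hba-a2, −1.29 for Hbb-bs, −1.47 for Hbb-bt and −1.45 for Alas2. None was called (edgeR adjusted p between 0.152 and 0.430), where 1.2% of all tested genes were. The intervals of the 4 globin genes included 0, and that of Alas2 ran from −2.53 to −0.36. The groups again overlapped for all 5 genes, against separation in 22.1% of all tested genes. Without VAS+H2O replicate 3 the median of the 5 moved from −1.29 to −0.84, and without IMQ+XYF replicate 3 to −1.94. By the Wald test of DESeq2, Alas2 passed in this comparison alone, with a log2 fold change of −1.42 (DESeq2 adjusted p 0.0428).

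**Figure D2:**
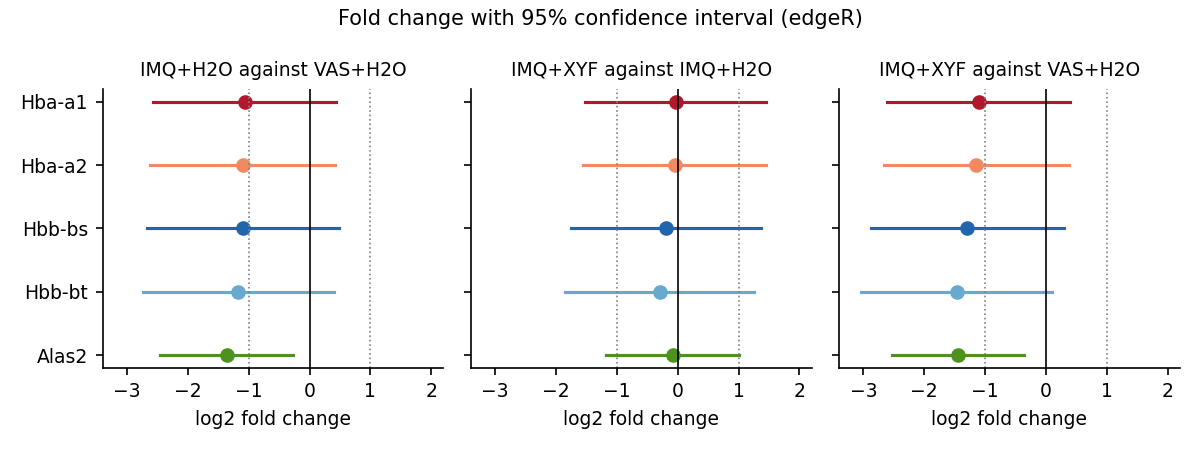
Log2 fold changes of the 5 tested genes in the 3 comparisons, with points for the edgeR estimates and bars for 95% confidence intervals. Dotted lines mark a log2 fold change of 1 in either direction. The intervals of the globin genes cross 0 in all 3 panels, whereas those of Alas2 lie below 0 in both comparisons with VAS+H2O.

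The spread between replicates was wide for these genes. Within groups, the SD of the log2 level was between 0.996 and 1.06 for the 4 globin genes and 0.676 for Alas2, and the median over all tested genes was 0.318. The SD of the globin genes exceeded that of between 91.8% and 93.1% of the tested genes, and that of Alas2 exceeded 81.2%.

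Within a library, the proportions among the globin genes were far steadier than their levels. Hba-a1 contributed between 54.1% and 55.3% of the alpha counts in the 9 libraries. Hbb-bs contributed between 75.4% and 79.8% of the beta counts. The counting error of these shares was small, for example 54.1% with an exact 95% interval from 53.2% to 54.9% in VAS+H2O replicate 3. Such intervals and the floors above cover counting error only, because reads copied from 1 molecule were not told apart.

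The ratio of alpha to beta counts was between 1.12 and 1.53. It was 1.30, 1.12 and 1.22 in VAS+H2O, 1.29, 1.22 and 1.18 in IMQ+H2O and 1.53, 1.29 and 1.38 in IMQ+XYF. The IMQ+XYF libraries lay just above the IMQ+H2O libraries and overlapped with VAS+H2O. This ratio was described without a test.

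Alas2 did not keep a fixed proportion to globin. It had 19.0, 16.6 and 14.3 counts per 1000 globin counts in VAS+H2O, 16.0, 27.5 and 7.21 in IMQ+H2O and 15.5, 22.0 and 9.54 in IMQ+XYF. The exact 95% intervals of replicates 2 and 3 did not overlap within IMQ+H2O, from 20.1 to 34.8 and from 5.48 to 9.18, nor within IMQ+XYF, from 17.1 to 26.9 and from 7.74 to 11.4. The group means of 16.6 ± 2.36, 16.9 ± 10.2 and 15.7 ± 6.25 (SD, n = 3) differed by less than the spread within any group.

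**Figure D3:**
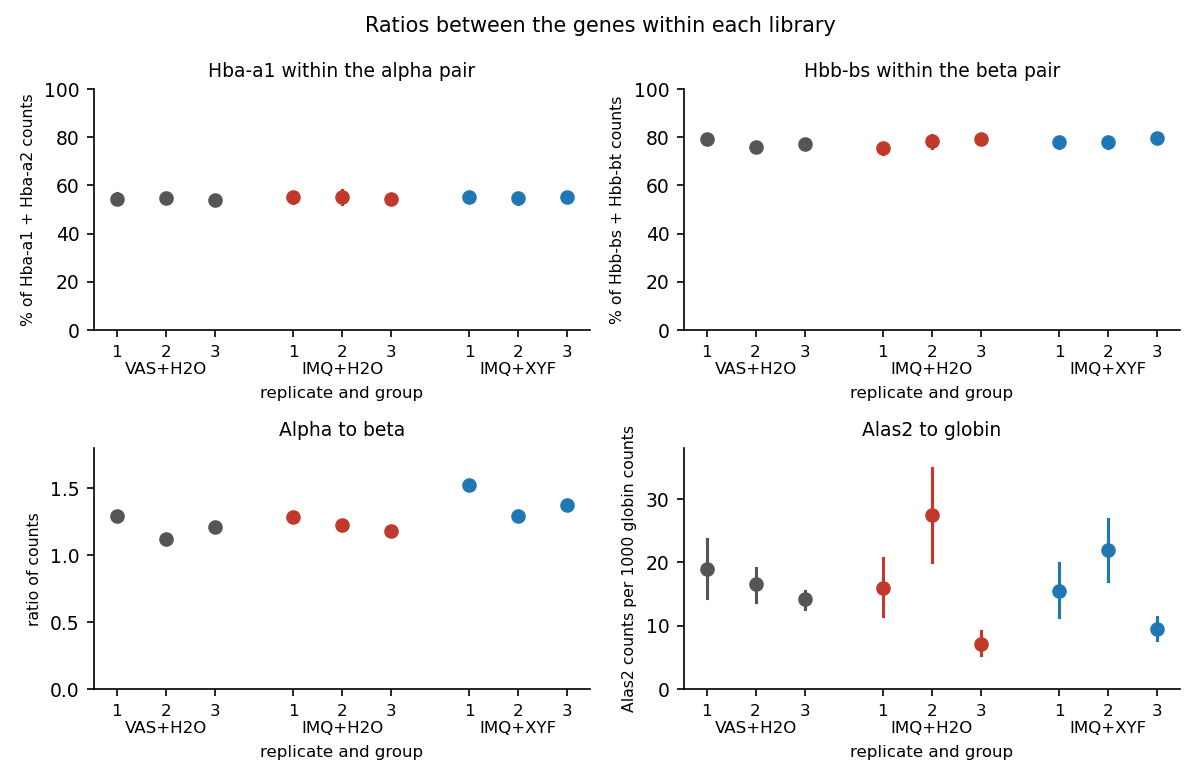
Proportions among the globin genes and Alas2 within each library, coloured by group, with bars for exact 95% binomial intervals except for the ratio of alpha to beta counts, which has none. Hba-a1 stays between 54.1% and 55.3% of the alpha counts, whereas Alas2 ranges from 7.21 to 27.5 counts per 1000 globin counts.

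Across the 9 libraries, the log2 levels of the 4 globin genes correlated with each other with Pearson's r between 0.989 and 1. Alas2 correlated with them with r between 0.82 and 0.864, and Slc4a1, with counts in 2 libraries, with r between 0.428 and 0.479. The values within a pair share reads, and all share the scaling of the library. With the group means removed, r was between 0.991 and 1 among the globin genes and between 0.747 and 0.803 for Alas2 with each of them.

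Globin genes outside the adult pairs, which include embryonic genes, were at or near 0. Hba-x, Hbb-y, Hbb-bh0, Hbb-bh1, Hbb-bh2, Hbb-bh3 and Hbq1a had 0 counts in all 9 libraries, and Hbq1b had 3 counts in IMQ+XYF replicate 1. The globins of other cells were present. Mb, which encodes myoglobin of muscle, ranged from 19.2 to 429 CPM, Cygb, the widely expressed cytoglobin gene, from 67.6 to 139 CPM and Ngb, the neuroglobin gene, from 0.624 to 3.70 CPM. None of the 3 was called in any comparison. Ngb, which was chosen after its values were seen, was lower in all IMQ+H2O libraries than in all VAS+H2O libraries (log2 fold change −1.64, edgeR adjusted p 0.0855). Such a separation in the lower direction was found for 16.5% of all tested genes.

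Other genes of red cells were compared from 4 lists of 58 genes, of which 47 were tested. They covered late red cell genes, membrane and skeleton genes, heme synthesis genes, and erythroid transcription factors with the erythropoietin receptor. None of the 47 was called in any of the 3 comparisons. In IMQ+H2O against VAS+H2O, 24 had a lower and 23 a higher mean, and the median log2 fold change was −0.01, beside −0.02 over all tested genes and −1.10 for the globin genes and Alas2. The medians were −0.10 in IMQ+XYF against IMQ+H2O and −0.17 in IMQ+XYF against VAS+H2O. Unadjusted p-values below 0.05 numbered 7, 6 and 11 of 47 in the 3 comparisons, in the order given, beside 4694, 2633 and 4112 of all 22430 tested genes, so that these counts are no result about the erythroid genes.

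**Figure D4:**
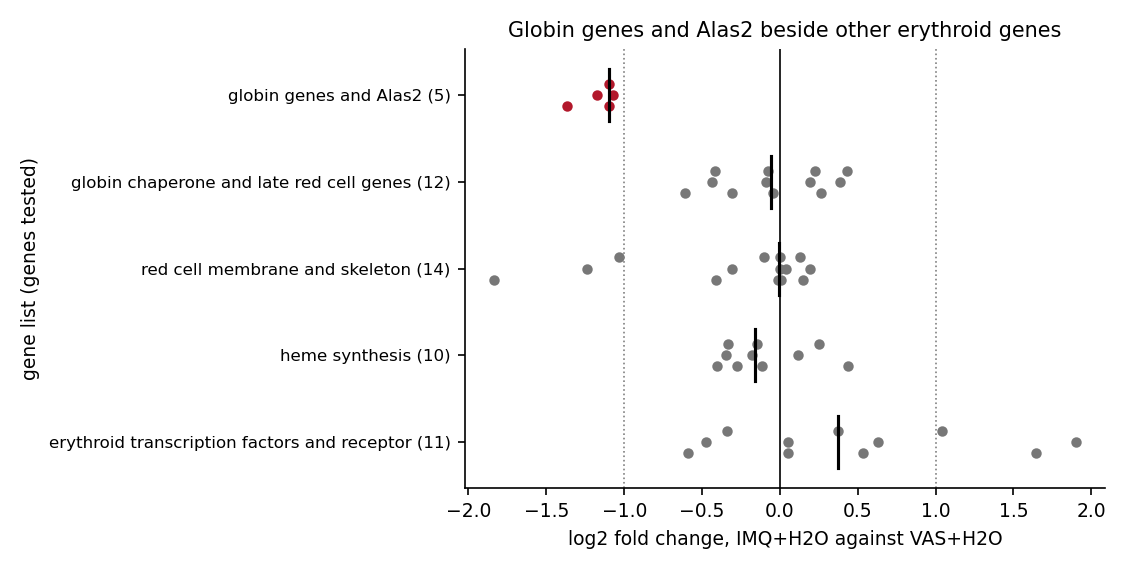
Log2 fold changes of IMQ+H2O against VAS+H2O for the 5 tested genes of the set and for 4 lists of other erythroid genes, with 1 point per gene, numbers of genes tested in parentheses and a vertical bar at each median. The 5 genes lie between −1.36 and −1.07, whereas the medians of the other lists lie between −0.16 and 0.37.

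Genes that are largely restricted to red cells were at or near 0, as Slc4a1 was. Epb42, the gene of a red cell membrane protein, reached 0.844 CPM in VAS+H2O replicate 3, which was also the library with the highest globin level. Rhag, of the Rh complex, reached at most 0.124 CPM, in IMQ+XYF replicate 1, where globin was lowest. Hemgn, the hemogen gene, reached at most 0.333 CPM, in VAS+H2O replicate 2. Of Epb42, Rhag and Hemgn, only Epb42 was tested (log2 fold change −1.83 for IMQ+H2O against VAS+H2O, edgeR adjusted p 0.282).

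The membrane and skeleton genes with the highest levels are also used by other cells. Aqp1, the water channel gene of red cells and endothelium, had between 398 and 627 CPM. Slc2a1, Epb41 and Gypc were next, and their log2 fold changes by imiquimod were between 0.00 and 0.15. Ermap, which encodes an erythroid membrane protein, had a log2 fold change of −1.24 (edgeR adjusted p 0.273). Ank1 and Tmod1, which muscle also expresses, had log2 fold changes of −1.19 and −1.35 in IMQ+XYF against IMQ+H2O (edgeR adjusted p 0.367 and 0.364). In the same comparison all 6 skeletal muscle genes had lower means, with a median log2 fold change of −1.70. The part of muscle in the values of Ank1 and Tmod1 was not tested.

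Heme synthesis genes other than Alas2 were tested in full, and none was called. The median of their log2 fold changes by imiquimod was −0.16, and Tfrc, the transferrin receptor gene, had the lowest, −0.40. Fech, whose product inserts iron into protoporphyrin to form heme, had −0.33 (edgeR adjusted p 0.12), Alad had −0.35, and Alas1, the form of the enzyme made in all tissues, had 0.25. Bnip3l, Prdx2, Xpo7 and Mkrn1 were the most abundant late red cell genes, with values between −0.31 and −0.04. Bpgm, the gene of the enzyme that makes 2,3-bisphosphoglycerate, had −0.61 and Car2, a carbonic anhydrase gene, had 0.43. Ahsp, the alpha globin chaperone gene, was not matched in the table.

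Among the transcription factors, Ldb1, Zfpm1, Bcl11a and Tal1 had the highest levels. Gata1, the master regulator of the red cell lineage that platelet precursors and mast cells also use, had between 0 and 0.998 CPM, and Klf1 had between 0.0813 and 0.873 CPM. Gata1 and Klf1 had log2 fold changes by imiquimod of 1.04 and −0.48, and Epor, the erythropoietin receptor gene, had 0.54 (edgeR adjusted p between 0.411 and 0.745). Nfe2, a factor of red cell and platelet precursors, had 1.90 (edgeR adjusted p 0.0731).

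Of 15 tested genes for the clearance of haemoglobin and heme and the handling of their iron, 4 were called in IMQ+H2O against VAS+H2O. Among all tested genes 0.994% were called in that comparison, and the median log2 fold change over the 15 was 0.24. Among the 4, Hp acts on haemoglobin, and the others store or transport iron. Hp, which encodes haptoglobin, the acute phase protein that binds free haemoglobin, rose from 36.7, 90.4 and 55.0 CPM in VAS+H2O to 212, 399 and 290 CPM in IMQ+H2O (log2 fold change 2.31, edgeR adjusted p 0.0435). Fth1, the ferritin heavy chain gene, rose with a log2 fold change of 1.40 (edgeR adjusted p 0.00646), and Slc11a1, a macrophage iron transporter gene, with 1.46 (edgeR adjusted p 0.0373). Slc40a1, which encodes the iron exporter ferroportin, fell by 1.60 on the log2 scale (edgeR adjusted p 0.0429). Hmox1, the heme oxygenase gene, had 1.06 and was not called (edgeR adjusted p 0.0982). Cd163, the macrophage receptor for haptoglobin-bound haemoglobin, had 0.24. In IMQ+XYF against VAS+H2O, where 1.2% of all tested genes were called, Hp was the only one of the 15. Its log2 fold change was 2.65 (edgeR adjusted p 0.0309). Fth1 had 0.91 there with a lower p (edgeR adjusted p 0.0221) and was not called because of the limit on the fold change. In IMQ+XYF against IMQ+H2O none was called.

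Genes of other blood cells and of vessels were listed for comparison. Among 9 tested neutrophil genes, S100a8, S100a9, Csf3r and Mmp8 were called higher in IMQ+H2O than in VAS+H2O. The share called in either direction was 0.994% over all tested genes. The summed level of the 13 listed neutrophil genes was between 7.71 and 26.9 CPM in VAS+H2O, between 213 and 675 CPM in IMQ+H2O and between 175 and 485 CPM in IMQ+XYF. No platelet gene of 12 tested was called in any comparison, and the summed level of 16 platelet genes, led by Gng11, Pf4, Itgb3 and Itga2b, stayed between 85.5 and 157 CPM. Among 5 tested B cell genes, only Ighm, the immunoglobulin mu chain gene, was called. It was lower in IMQ+H2O against VAS+H2O, at −1.07 (edgeR adjusted p 0.0342), and in IMQ+XYF against VAS+H2O, at −1.63 (edgeR adjusted p 0.0137). The shares called over all tested genes were 0.994% and 1.2%. The medians over the 5 were −0.21 and 0.05, with 2 and 3 genes higher, so that the B cell genes did not fall as a list. P2ry12, a platelet receptor gene, was chosen after its values were seen. Its highest levels, 11.2 and 9.23 CPM, were in VAS+H2O replicates 2 and 3, where globin was highest. Among 12 tested platelet genes, Pearson's r with the mean profile of the red cell set ran from −0.394 for Tubb1 to 0.775 for Treml1. It was 0.735 for P2ry12, 0.114 for Itga2b and −0.361 for Ppbp, so that the platelet genes did not follow globin as a list.

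The summed level of 15 endothelial genes was 1041, 1175 and 1612 CPM in VAS+H2O, 2312, 2265 and 2406 CPM in IMQ+H2O and 1511, 959 and 2107 CPM in IMQ+XYF. Endothelial levels were thus higher in every IMQ+H2O library than in every VAS+H2O library, where the globin genes overlapped. Plvap, the gene of a protein of fenestrated endothelium, was the only one of the 15 called (log2 fold change 1.55, edgeR adjusted p 0.049). In each group, the library with the most globin also had the highest summed endothelial level. The summed level of 6 fibroblast genes in VAS+H2O was 14585, 22799 and 25338 CPM, which is also the order of globin in that group. It was 10361, 17272 and 16827 CPM in IMQ+H2O and 11191, 10527 and 17713 CPM in IMQ+XYF. In neither of these groups was the order that of globin. Cartilage genes were higher in every VAS+H2O library than in every IMQ+H2O library for all 7 tested. Of all tested genes, 16.5% separated in this direction. Among the 7 cartilage genes, 2 were called, namely Col2a1 and Matn3 (log2 fold changes −2.70 and −2.48, edgeR adjusted p 0.0247 and 0.0407). The share called over all tested genes was 0.994%. The part of cell composition in the globin values was not tested.

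**Figure D5:**
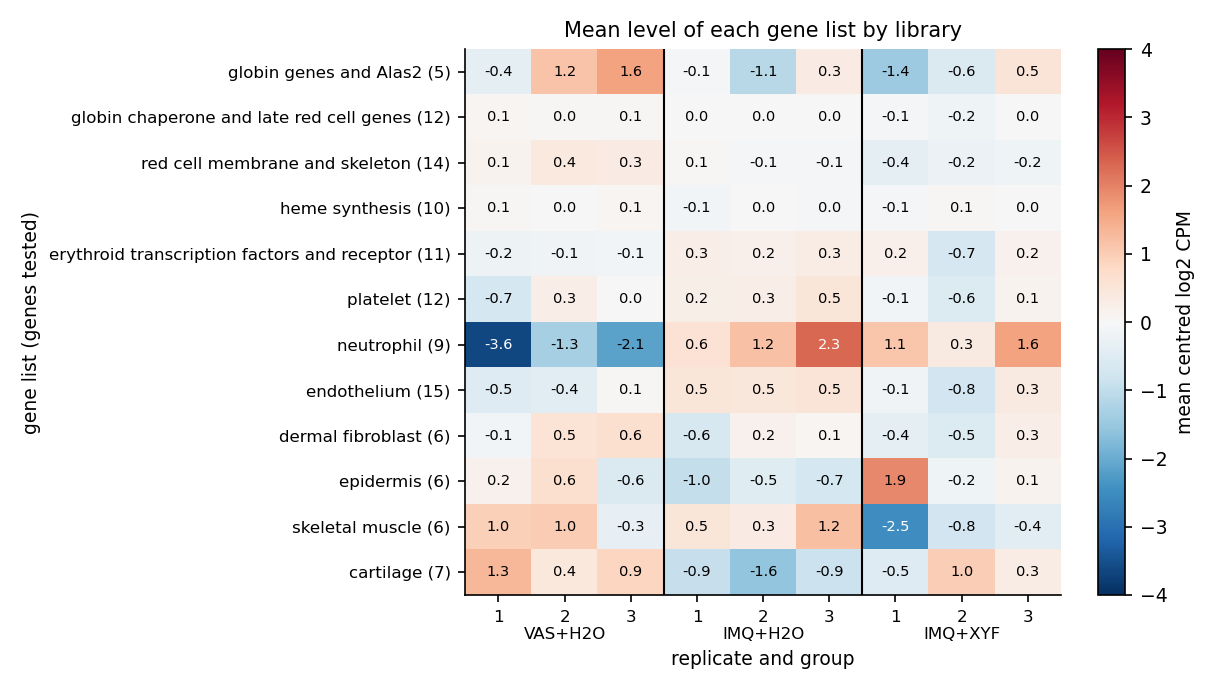
Mean of centred log2 CPM for the 5 tested genes of the set and for 11 other gene lists, in each of the 9 libraries, with numbers of genes tested in parentheses and red for levels above a list's own mean. The row of globin genes and Alas2 runs from −1.4 to 1.6, whereas the rows of the other red cell lists stay between −0.66 and 0.39.

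The genes most alike in pattern were sought by Pearson's r over the 9 libraries with the mean log2 profile of the 6 genes. The search covered 14524 tested genes outside the set with a mean of at least 1 CPM, and Gm and Rik symbols were left out. The 10 with the highest r were Zfp382 (0.951), AC154361.2 (0.934), Setdb2 (0.933), Purg (0.933), Sptbn1 (0.93), Dcp2 (0.918), Pik3r1 (0.915), Irf1 (0.913), Cyb5r3 (0.91) and Pigz (0.905). None of the listed erythroid, platelet or endothelial genes was among them. Of the 47 other erythroid genes, Aqp1 alone had an r of 0.8 or higher (0.824), 15 had an r below 0, and the median was 0.243. With the group means removed, 3 of the 10 remained among the most alike, namely Zfp382, Purg and Sptbn1. With Hbb-bs alone as the profile, without the sparse counts of Slc4a1, 7 of the 10 remained, and Rnf6 had the highest r (0.935). These values are a description over 9 libraries that share their scaling, and no test was made of them.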

How the data were processed

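RNA from the ear dermis was sequenced in 9 libraries, 3 per group. The authors deposited a table of whole-number read counts per Ensembl gene, with no normalization. Per the labels and the study's methods, reads were aligned with STAR 2.5 to GRCm38, and the labels further name FastQC, Cuffnorm and DESeq 1.22.1. The counting tool was not given in the sources used here. Counts were tested with edgeR 4.0.16 in R 4.3.3, with filterByExpr, TMM factors and 1 quasi-likelihood fit over all 9 libraries with a coefficient per group (common biological coefficient of variation 0.296). SEs were obtained from the F statistic and the log2 fold change. p-values were adjusted by Benjamini-Hochberg over 22430 genes. DESeq2 1.42.0 was an alternative, beside other scaling, no filter, fits of 2 groups, a replicate block, summed globin pairs and leaving out each library. The genes of the set, the gene lists and the tests were chosen with earlier results of these data known. Named genes were all 6 of the set and, of each list, called genes, defining red cell genes, or the most abundant where none was called. Of the listed genes, 164 were matched by symbol, 3 by Ensembl identifier and 3 not at all. Log2 levels for spread, likeness and list means used a prior count of 2. Per-kilobase levels used the coding length, since the annotated alpha transcripts differ in their ends.

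Over all tested genes, same-numbered libraries did not deviate together (r between −0.183 and 0.125), and the numbers were not used to pair them. For the globin genes, replicate 3 was the highest of each group. Some listed genes are not reported here by name.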

Additional observations from a re-analysis of the deposited data

How the results depend on the processing

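Every log2 fold change of the 5 tested genes in both comparisons with VAS+H2O kept its negative sign under all 17 alternatives. Alas2 in IMQ+XYF against VAS+H2O was the only call gained, by DESeq2, where 1 gene of the set was then called (adjusted p 0.0428, between 0.0428 and 0.37 over its alternatives). The cause was not tested.
In IMQ+XYF against IMQ+H2O signs turned when single libraries were left out. Without IMQ+H2O replicate 3, log2 fold changes were 0.43 for Hba-a1, 0.44 for Hba-a2, 0.37 for Hbb-bs and 0.14 for Hbb-bt. Without IMQ+XYF replicate 1 they were 0.32, 0.31, 0.19 and 0.08, and 0.25 for Alas2. Without IMQ+XYF replicate 2 they were 0.19 for Hba-a1, 0.17 for Hba-a2 and 0.0076 for Hbb-bs, and without IMQ+H2O replicate 1 it was 0.08 for Alas2. The lowest values, all without IMQ+XYF replicate 3, were −0.83, −0.84, −1.01, −1.01 and −0.33 for the genes in the order Hba-a1, Hba-a2, Hbb-bs, Hbb-bt and Alas2.
When each library was left out in turn, the median of the 5 genes was between −1.53 and −0.65 for IMQ+H2O against VAS+H2O, between −0.84 and 0.37 for IMQ+XYF against IMQ+H2O, and it was between −1.94 and −0.84 for IMQ+XYF against VAS+H2O, and no gene of the set was called.
Counts of called genes, first for IMQ+H2O against VAS+H2O, then for IMQ+XYF against IMQ+H2O and last for IMQ+XYF against VAS+H2O, were 223, 2 and 270. They were 945, 223 and 701 by DESeq2, and 496, 1 and 33 with the libraries of the 2 groups alone. With no scaling factors IMQ+XYF against IMQ+H2O had 1. Leaving out 1 library gave between 25 and 455, between 0 and 4 and between 12 and 592. The second of these comparisons had 2633 genes at an unadjusted p below 0.05.
Other erythroid genes called, 0 in each comparison by edgeR, were 1, 1 and 3 by DESeq2, namely Nfe2, Tmod1, and both with Ank1. In IMQ+XYF against VAS+H2O, 1 was called with no scaling factors, and leaving out 1 library gave between 0 and 1, the latter without IMQ+XYF replicate 2.
The libraries of different groups share replicate numbers, but only 1 of 9 same-numbered pairs of libraries deviated together with r over 0.1. With a replicate block the called genes numbered 86, 0 and 54, the medians of the 5 genes were −1.001, −0.25 and −1.40, and no gene of the set or of the other erythroid lists was called.
Slc4a1 had too few counts for a test, and the deepest library had none of it.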
